A study of Homo sapiens with 4 samples.

Results

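The 38 genes described here encode heterogeneous nuclear ribonucleoproteins (hnRNPs) and related RNA-binding proteins: the A/B, C, H/F, K, L, M, R, Q, G and U types, the polypyrimidine tract-binding proteins, the FET proteins and TDP-43, the paraspeckle proteins SFPQ and NONO, and binders of AU-rich or U-rich RNA. They were chosen by gene symbol from a list of names, with earlier results of these data known, and all 38 were among the 26830 symbols of the table. The study pulled down RNA bound to 3xFlag-tagged ALKBH5 from NOMO-1 cells, a line from a human acute myeloid leukaemia, and sequenced it beside input RNA. There were 2 Flag-IP libraries, precipitated with an anti-Flag antibody, and 2 input libraries made without antibody, each pair numbered 1 and 3; values below are given in that order. Both groups came from cells that overexpressed the tagged ALKBH5 coding sequence from a lentivirus, were kept by puromycin selection and GFP sorting, and were UV-crosslinked before lysis. A pull-down from cells without the tag was not analysed here, so the part of the Flag-IP signal that does not depend on ALKBH5 was not measured. Whether the libraries of a group are separate cultures is not in the labels. The p-values measure only the spread between libraries, pooled in part or in full over genes, which may be technical.

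hnRNPs coat nascent transcripts in the nucleus and direct their splicing, export, stability and translation. Many of them bind their own mRNA and hold their own level in check by switching its splicing towards forms with a premature stop codon or a retained intron, so their genes often produce transcripts that are destroyed by nonsense-mediated decay. ALKBH5 is an enzyme that removes N6-methyladenosine (m6A) from RNA, and HNRNPC, RBMX (hnRNP G) and HNRNPA2B1 are proteins whose binding has been linked to m6A. The mark is laid down most readily on the central A of the sequence GGACU, which reads GGACT in DNA letters.

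The coding sequences shown here are from genes near the high end (HNRNPH1 and FUBP1) and the low end (PCBP1, HNRNPUL1 and HNRNPF) of the comparison below that hold GGACT with at least 10 coding bases on either side. Each window has 25 bases around the last such match, 5′ to 3′ on the mRNA strand, with GGACT in capitals, from GENCODE 29 transcripts on GRCh38. Methylation was not measured, and a match is a description of the letters, not a modified site.
HNRNPH1: cattgccggtGGACTtccaggggag
FUBP1: accacctggtGGACTacaggaattt
PCBP1: gactgaaagtGGACTaaatgtgact
HNRNPUL1: cagatgttggGGACTtcctggatga
HNRNPF: gaccggcccgGGACTgccaggaggt
The window of HNRNPH1 lies at chr5:179619356-179619380 on the minus strand and that of FUBP1 at chr1:77963620-77963644 on the minus strand. The PCBP1 window lies at chr2:70087758-70087782 on the plus strand. HNRNPUL1 has its window at chr19:41302680-41302704 on the plus strand and HNRNPF at chr10:43387230-43387254 on the minus strand. HNRNPH1, HNRNPUL1 and HNRNPF hold 2 matches each in their coding sequences, and FUBP1 and PCBP1 hold 1 each. TIA1 and RALY, which also stand at the ends of the comparison, hold none.

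Values are TPM, transcript abundances scaled by gene length and library total, so that levels of different genes can be set side by side but the read depth of a library is unknown. Structural RNAs (ribosomal, 7SL, spliceosomal, nucleolar and similar RNAs) took 92.5% and 93.6% of the TPM in the Flag-IP libraries and 96.8% and 96.3% in the inputs. Genes were compared on 2 scales: as deposited, and relative to the typical gene, after dividing each library by the median ratio of its genes (the median-ratio scale). Each difference is on log2(TPM + 1), which understates the change of low genes, and a gene passed at an adjusted p below 0.05 in limma over all 6487 genes that averaged 1 TPM or more. ALKBH5 itself, whose coding sequence the lentivirus also supplied, had 10.09 and 8.91 TPM in the Flag-IP libraries against 4.62 and 4.91 TPM in the inputs, a ratio of means of 1.99; relative to the typical gene its difference was -0.24 ± 0.11 (SE, limma adjusted p = 0.124). Of 12 monocytic and myeloid markers 7 to 8 reached 1 TPM in the Flag-IP libraries and 7 in the inputs, summing to 120.11 to 127.63 TPM and 70.05 to 84.08 TPM. None of 15 markers of other cell types did so in any library, and these summed to 0.33 to 0.44 TPM in the Flag-IP libraries and 0.12 to 0.31 TPM in the inputs.

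On the deposited scale nearly all of the hnRNP-type mRNAs were higher in the Flag-IP, as were most genes. The 38 genes together summed to 555.11 and 458.83 TPM in the Flag-IP libraries and to 229.86 and 268.93 TPM in the inputs. Among all RNA other than structural RNA they held nearly the same share in both groups, 0.741% and 0.715% in the Flag-IP libraries and 0.719% and 0.736% in the inputs, and the groups overlapped. Of the 36 genes that could be tested, 35 were higher in the Flag-IP (97.2%), none was lower and RALY did not pass; of all tested genes 86.6% were higher and 0.74% lower. Both Flag-IP libraries stood above both inputs for all 36, as they did for 93.1% of all tested genes, and none of the 36 had both below (1.09% of all tested genes). The median log2 difference of the 36 was 0.91 with a range of 0.25 to 2.04, beside 0.84 over all tested genes, and their median ratio of means was 2.11 beside 2.38. The 35 calls of limma dropped to 21 without input 1, to 31 without Flag-IP 1, to 32 without input 3 and to 34 without Flag-IP 3. When structural RNAs were left out of the total, 10 of the 36 were higher and 5 lower, beside 2205 higher and 709 lower of the 6282 genes tested that way. HNRNPH2 and PTBP3 averaged less than 1 TPM and were not tested, and HNRNPH3 and TIA1 passed that filter only through their Flag-IP values, since their inputs averaged 0.845 and 0.605 TPM.

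**Figure D1:**
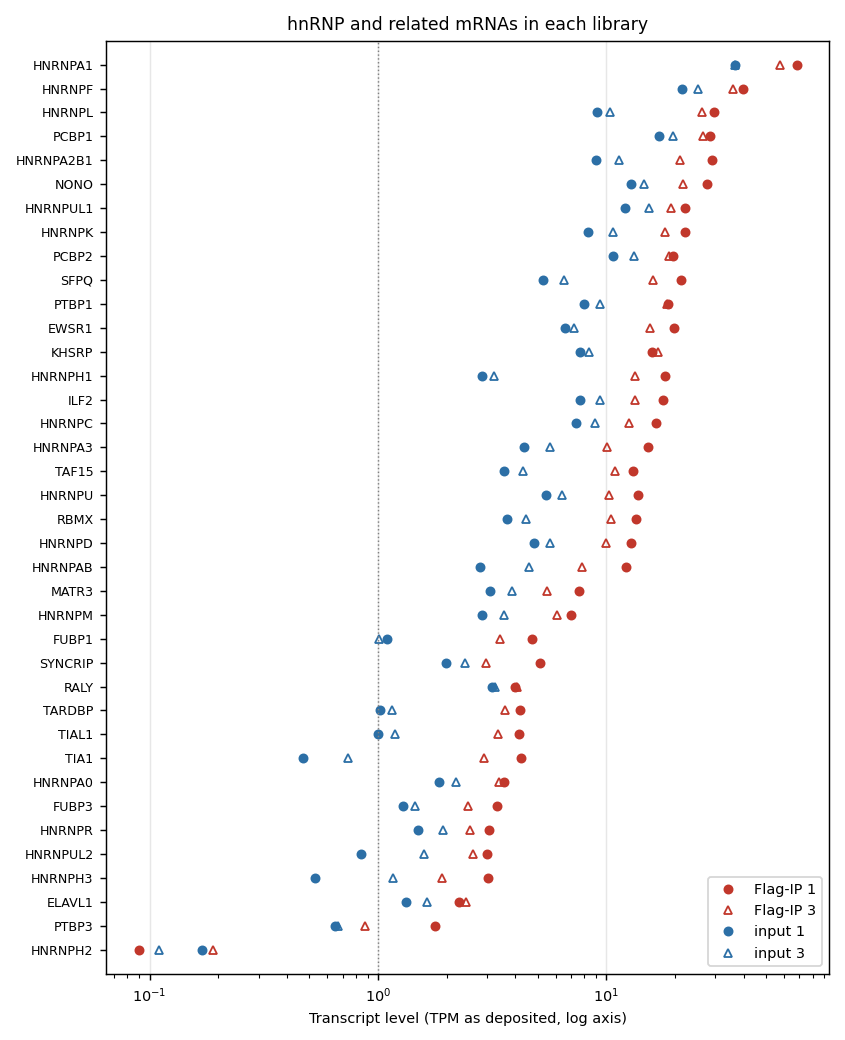
Deposited TPM of each of the 38 genes (horizontal log axis) in the 2 Flag-IP libraries (red) and the 2 inputs (blue), ordered by mean Flag-IP level, with circles for libraries numbered 1, triangles for 3 and a dotted line at 1 TPM. HNRNPA1 and HNRNPF lead in every library, HNRNPH1 and TIA1 show the widest gaps between groups, and RALY one of the narrowest.

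Levels of the individual mRNAs spread widely. HNRNPA1 was the highest of them in all 4 libraries, at 12.2% and 12.5% of their summed TPM in the Flag-IP libraries and 15.9% and 13.6% in the inputs, and HNRNPF was the second highest. In the Flag-IP libraries 37 and 36 of the 38 reached 1 TPM, against 33 and 35 in the inputs. HNRNPH2 was the lowest, at 0.09 and 0.19 TPM in the Flag-IP libraries against 0.17 and 0.11 TPM in the inputs, where the groups overlapped.

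Relative to the typical gene the 36 tested mRNAs divided. Limma placed 6 of them higher in the Flag-IP (16.7%), namely HNRNPH1, TIA1, FUBP1, TARDBP, SFPQ and TIAL1, and 12 lower (33.3%), namely RALY, PCBP1, HNRNPUL1, HNRNPF, PCBP2, HNRNPA1, NONO, HNRNPC, ELAVL1, ILF2, HNRNPR and HNRNPA0; 18 did not pass. Of all tested genes 22.3% were higher and 18.6% lower. For 10 of the 36 both Flag-IP libraries stood above both inputs (37% of all tested genes) and for 20 both stood below (37.1%), and 6 overlapped. The median difference of the 36 was -0.16, with an interquartile range of -0.38 to 0.20, beside -0.01 and -0.30 to 0.32 over all tested genes. The calls depended on single libraries: with 1 library left out at a time 2 to 3 genes were higher and 4 to 5 lower. HNRNPH1 and TIA1 as higher and RALY as lower kept their calls under every alternative in which they were tested; a filter at 5 TPM removed TIA1 and RALY. With no filter on low values FUBP1, TARDBP, SFPQ, TIAL1, HNRNPA0, HNRNPR and ELAVL1 no longer passed. At a filter of 5 TPM PCBP2, HNRNPA1, HNRNPC, NONO and ILF2 no longer did. With scaling to a total that leaves out structural RNAs, HNRNPA0, HNRNPA1, HNRNPC, HNRNPR, NONO, ILF2 and ELAVL1 no longer did. On that scaling HNRNPL, TAF15, RBMX and EWSR1 passed as higher. The median difference of all tested genes was 0.24 there, so these calls are not relative to the typical gene.

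**Figure D2:**
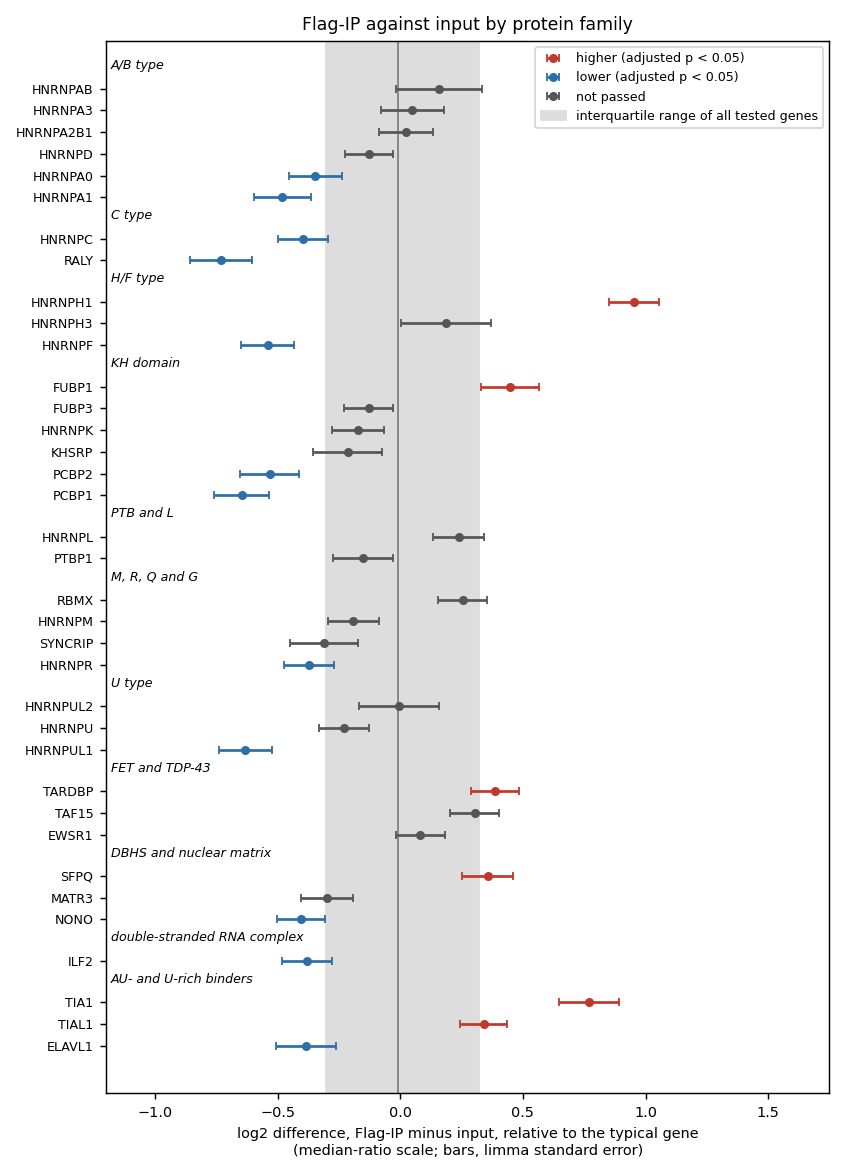
Log2 difference, Flag-IP minus input, relative to the typical gene for the 36 tested genes, grouped by protein family, with bars for the limma standard error, red for higher and blue for lower at adjusted p below 0.05. HNRNPH1 at 0.95 and TIA1 at 0.77 lie farthest to the right of the grey band, which spans the middle of all tested genes (-0.30 to 0.32). RALY at -0.73 lies farthest to the left.

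H/F proteins, which bind runs of G and steer splice site choice, showed the widest contrast within a family. HNRNPH1 (chr5:179614178-179634784, minus strand) had 18.05 and 13.36 TPM in the Flag-IP libraries against 2.84 and 3.23 TPM in the inputs, a ratio of means of 5.17. Relative to the typical gene its difference was 0.95 ± 0.10 (SE, limma adjusted p = 0.00175), and only 5.49% of tested genes had a larger one. HNRNPF (chr10:43385617-43409166, minus strand), a close relative with a single coding exon, had 39.64 and 35.99 TPM in the Flag-IP libraries against 21.40 and 25.10 TPM in the inputs. Its ratio of means was 1.63 and its difference relative to the typical gene -0.54 ± 0.11 (limma adjusted p = 0.0111). Both Flag-IP libraries were thus the higher ones for each gene on the deposited scale, while on the median-ratio scale HNRNPH1 stood above its inputs and HNRNPF below. HNRNPH3, the smaller member, had 3.02 and 1.91 TPM in the Flag-IP libraries against 0.53 and 1.16 TPM in the inputs, and its difference of 0.19 ± 0.18 did not pass (limma adjusted p = 0.445). Without input 1 or input 3 HNRNPF missed the threshold (adjusted p = 0.0509 and 0.0621), as under quantile scaling (0.371), and HNRNPH1 ranged between 0.78 and 1.33 over all alternatives.

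TIA1 and its close relative TIAL1, which bind U-rich RNA and gather in stress granules, were both higher relative to the typical gene. TIA1 (chr2:70209444-70248660, minus strand) had 4.24 and 2.92 TPM in the Flag-IP libraries against 0.47 and 0.74 TPM in the inputs, with a ratio of means of 5.92, the largest among the tested genes of these families. Its difference relative to the typical gene was 0.77 ± 0.12 (limma adjusted p = 0.00555) and was 0.64 or more under every alternative in which it was tested. The TIA1 inputs averaged 0.605 TPM, so the gene passed the filter only through its Flag-IP values, the group in which it was called higher. TIAL1 (chr10:119571802-119597029, minus strand) had 4.15 and 3.35 TPM in the Flag-IP libraries against 1.00 and 1.19 TPM in the inputs, a ratio of 3.42 and a difference of 0.34 ± 0.10 (limma adjusted p = 0.0353). The Flag-IP libraries of both genes stood above the inputs on both scales. ELAVL1 (HuR), which stabilises mRNAs with AU-rich elements, went the other way relative to the typical gene, with 2.26 and 2.43 TPM in the Flag-IP libraries against 1.33 and 1.64 TPM in the inputs and a difference of -0.38 ± 0.12 (limma adjusted p = 0.0474). TIAL1 and ELAVL1 missed the threshold without any 1 of the 4 libraries, with adjusted p between 0.0945 and 0.133 and between 0.0536 and 0.233. TIAL1 also missed it under quantile scaling (0.0659) and with the length trend removed (0.187).

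The C type held RALY, the lowest of all 36 relative to the typical gene. RALY (chr20:33993646-34108308, plus strand), a relative of HNRNPC, had 3.98 and 4.07 TPM in the Flag-IP libraries against 3.16 and 3.27 TPM in the inputs. These averaged 4.03 ± 0.0636 and 3.21 ± 0.0778 TPM (SD, n = 2 each), and the deposited difference of 0.25 ± 0.21 did not pass (limma adjusted p = 0.246). The standard error of that difference follows a spread shared between genes and not that of the RALY values alone. On the median-ratio scale the RALY difference was -0.73 ± 0.13 (limma adjusted p = 0.00696), and 93.8% of tested genes had a larger one. HNRNPC (chr14:21209136-21269494, minus strand), which binds U tracts in nascent transcripts, had 16.55 and 12.61 TPM in the Flag-IP libraries against 7.39 and 8.94 TPM in the inputs, and its difference was -0.40 ± 0.10 (limma adjusted p = 0.024). On the median-ratio scale both Flag-IP libraries of each gene lay below both inputs. HNRNPC missed the threshold without any 1 library (adjusted p 0.059 to 0.117), under quantile scaling (0.258) and with structural RNAs left out (0.212).

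Among the A/B proteins, general splicing regulators that bind UAGG-type sites, HNRNPA1 and HNRNPA0 were lower relative to the typical gene and 4 others did not pass. HNRNPA1 (chr12:54280193-54287088, plus strand) had 68.00 and 57.51 TPM in the Flag-IP libraries against 36.55 and 36.69 TPM in the inputs, a ratio of means of 1.71 and a difference of -0.48 ± 0.12 (limma adjusted p = 0.0209). HNRNPA0, encoded by a single coding exon, had 3.55 and 3.38 TPM in the Flag-IP libraries against 1.85 and 2.19 TPM in the inputs, and its difference was -0.35 ± 0.11 (limma adjusted p = 0.0455). Both Flag-IP libraries lay below both inputs for these genes on the median-ratio scale. HNRNPA1 missed the threshold without Flag-IP 1, Flag-IP 3 or input 1 (adjusted p = 0.0689, 0.0535 and 0.128) and turned to 0.07 under quantile scaling (0.677). HNRNPA0 missed it without any 1 library (adjusted p 0.0732 to 0.215). HNRNPA2B1, proposed as a nuclear reader of m6A, had 28.99 and 21.09 TPM in the Flag-IP libraries against 9.04 and 11.32 TPM in the inputs. HNRNPA3 had 15.28 and 10.07 TPM in the Flag-IP libraries against 4.36 and 5.67 TPM in the inputs. Both moved with the typical gene, at 0.02 ± 0.11 (limma adjusted p = 0.878) and 0.05 ± 0.13 (0.784). HNRNPD (AUF1), which promotes decay of AU-rich mRNAs, had 12.87 and 9.98 TPM in the Flag-IP libraries against 4.83 and 5.64 TPM in the inputs. HNRNPAB had 12.16 and 7.86 TPM in the Flag-IP libraries against 2.79 and 4.58 TPM in the inputs. Their differences of -0.13 ± 0.10 and 0.16 ± 0.18 did not pass (limma adjusted p = 0.33 and 0.499), though HNRNPAB was higher with the length trend removed (0.46, adjusted p = 0.0351).

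The KH domain proteins bind C-rich or AU-rich single strands, and in this family the poly(C)-binding proteins were lower and FUBP1 higher relative to the typical gene. PCBP1 (chr2:70087454-70089203, plus strand), an intronless gene, had 28.43 and 26.49 TPM in the Flag-IP libraries against 16.99 and 19.61 TPM in the inputs, and its difference was -0.65 ± 0.11 (limma adjusted p = 0.00711). PCBP2 (chr12:53452102-53481162, plus strand) had 19.62 and 18.86 TPM in the Flag-IP libraries against 10.72 and 13.18 TPM in the inputs, and its difference was -0.53 ± 0.12 (limma adjusted p = 0.0159). FUBP1 (chr1:77944055-77979110, minus strand), first described as a binder of the far upstream element of MYC, had 4.73 and 3.42 TPM in the Flag-IP libraries against 1.10 and 1.01 TPM in the inputs. Its ratio of means was 3.86 and its difference 0.45 ± 0.12 (limma adjusted p = 0.0286). The groups did not overlap for these 3 genes on the median-ratio scale, with FUBP1 above and the PCBP genes below. FUBP3 had 3.31 and 2.49 TPM in the Flag-IP libraries against 1.29 and 1.45 TPM in the inputs. KHSRP, a decay factor for AU-rich mRNAs, had 15.90 and 16.81 TPM in the Flag-IP libraries against 7.67 and 8.37 TPM in the inputs. HNRNPK, the founding member of the KH type, had 22.05 and 17.97 TPM in the Flag-IP libraries against 8.27 and 10.72 TPM in the inputs. These last 3 genes had ratios of means of 2.12, 2.04 and 2.11, and their differences relative to the typical gene of -0.13, -0.22 and -0.17 did not pass (limma adjusted p = 0.335, 0.265 and 0.236). PCBP2 missed the threshold without Flag-IP 1 or input 3 (adjusted p = 0.0635 and 0.0781), and FUBP1 without Flag-IP 1, Flag-IP 3 or input 3 (0.133, 0.0743 and 0.115). Under quantile scaling PCBP1, PCBP2 and FUBP1 missed it too (0.0917, 0.103 and 0.0517).

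The U type, nuclear scaffold proteins that bind RNA and chromatin, had one gene that passed relative to the typical gene. HNRNPUL1 (chr19:41262496-41307598, plus strand) had 22.13 and 19.22 TPM in the Flag-IP libraries against 12.12 and 15.42 TPM in the inputs, and its difference was -0.63 ± 0.11 (limma adjusted p = 0.00654), with both Flag-IP libraries below both inputs on that scale. Quantile scaling was the one alternative under which it missed the threshold (adjusted p = 0.0518). HNRNPU (SAF-A), the scaffold attachment factor, had 13.69 and 10.24 TPM in the Flag-IP libraries against 5.45 and 6.37 TPM in the inputs and a difference of -0.23 ± 0.10 (limma adjusted p = 0.117), which passed as lower with the length trend removed (-0.72, adjusted p = 0.000536). HNRNPUL2 had 2.99 and 2.60 TPM in the Flag-IP libraries against 0.84 and 1.59 TPM in the inputs and a difference of -0.01 ± 0.16 (limma adjusted p = 0.983). The readthrough gene HNRNPUL2-BSCL2, which shares 2391 exon bases with it, was higher at 0.46 ± 0.14 (limma adjusted p = 0.0419). Reads could have been divided between them, so the HNRNPUL2 value does not settle the locus.

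DBHS proteins build paraspeckles, the nuclear bodies that form on the long noncoding RNA NEAT1, and the mRNAs of 2 partners that form heterodimers stood on opposite sides. SFPQ (chr1:35176378-35193148, minus strand) had 21.12 and 16.08 TPM in the Flag-IP libraries against 5.26 and 6.52 TPM in the inputs, a ratio of means of 3.16 and a difference relative to the typical gene of 0.36 ± 0.10 (limma adjusted p = 0.0365). NONO (chrX:71283192-71301168, plus strand) had 27.44 and 21.67 TPM in the Flag-IP libraries against 12.78 and 14.58 TPM in the inputs, a ratio of 1.79 and a difference of -0.40 ± 0.10 (limma adjusted p = 0.0208). In the inputs NONO exceeded SFPQ by more than in the Flag-IP, and neither gene's groups overlapped on either scale. Both calls were lost without any 1 library, at adjusted p of 0.0672 to 0.163 for SFPQ and 0.0561 to 0.1 for NONO, and that of NONO also under quantile scaling (0.711). MATR3, a nuclear matrix protein, had 7.59 and 5.50 TPM in the Flag-IP libraries against 3.09 and 3.88 TPM in the inputs and did not pass at -0.30 ± 0.11 (limma adjusted p = 0.0684), but was lower with the length trend removed (-0.56, adjusted p = 0.00357). ILF2, which acts in a complex that binds double-stranded RNA, had 17.67 and 13.31 TPM in the Flag-IP libraries against 7.69 and 9.42 TPM in the inputs and was lower at -0.38 ± 0.10 (limma adjusted p = 0.0294). Its call was lost without any 1 library (adjusted p 0.063 to 0.14), under quantile scaling (0.323) and with the length trend removed (0.437).

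Among the FET proteins and TDP-43, which bind long introns and are known for their part in neurodegeneration and sarcoma fusions, TARDBP was higher relative to the typical gene. TARDBP (chr1:11012344-11026420, plus strand), which encodes TDP-43 and limits its own mRNA, had 4.19 and 3.59 TPM in the Flag-IP libraries against 1.02 and 1.15 TPM in the inputs. Its ratio of means was 3.59 and its difference 0.39 ± 0.10 (limma adjusted p = 0.0246). TAF15 (chr17:35713791-35864615, plus strand) had 13.08 and 10.92 TPM in the Flag-IP libraries against 3.56 and 4.30 TPM in the inputs and a difference of 0.30 ± 0.10 (limma adjusted p = 0.0522). Both Flag-IP libraries stood above both inputs for TARDBP and TAF15 on both scales. EWSR1 had 19.83 and 15.53 TPM in the Flag-IP libraries against 6.56 and 7.20 TPM in the inputs and a difference of 0.08 ± 0.10 (limma adjusted p = 0.545). The call of TARDBP was lost without any 1 library (adjusted p 0.0711 to 0.106) and with the length trend removed (0.141). TAF15 passed as higher under 4 alternatives, among them quantile scaling (0.40, adjusted p = 0.0259).

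In the remaining families only HNRNPR passed relative to the typical gene. HNRNPR (chr1:23303771-23344336, minus strand) had 3.07 and 2.52 TPM in the Flag-IP libraries against 1.49 and 1.92 TPM in the inputs and a difference of -0.37 ± 0.10 (limma adjusted p = 0.0305), which missed the threshold without any 1 library (0.0581 to 0.132). SYNCRIP (hnRNP Q), its close relative in mRNA transport and stability, had 5.1 and 2.98 TPM in the Flag-IP libraries against 1.98 and 2.40 TPM in the inputs and a difference of -0.31 ± 0.14 (limma adjusted p = 0.117), which passed as lower with the length trend removed (-0.55, adjusted p = 0.00935). RBMX (chrX:136848004-136880764, minus strand), the X-linked hnRNP G, had 13.42 and 10.48 TPM in the Flag-IP libraries against 3.67 and 4.44 TPM in the inputs and a difference of 0.25 ± 0.10 (limma adjusted p = 0.0856). Of the 3 proteins linked to m6A, the mRNA of HNRNPC was thus lower in the main comparison and those of HNRNPA2B1 and RBMX did not pass. The call of HNRNPC was lost without any 1 library, and RBMX passed as higher under some alternatives. HNRNPL, which binds CA repeats, had 29.49 and 26.11 TPM in the Flag-IP libraries against 9.11 and 10.33 TPM in the inputs, the third highest mRNA of the 38 in the Flag-IP mean, with a difference of 0.24 ± 0.10 (limma adjusted p = 0.114). RBMX and HNRNPL passed as higher under quantile scaling, at 0.36 (adjusted p = 0.0419) and 0.53 (0.0122). PTBP1, which represses exons flanked by pyrimidine tracts, had 18.65 and 18.37 TPM in the Flag-IP libraries against 7.99 and 9.35 TPM in the inputs and a difference of -0.15 ± 0.12 (limma adjusted p = 0.352). PTBP3, the relative known from blood cells, had 1.77 and 0.88 TPM in the Flag-IP libraries against 0.65 and 0.67 TPM in the inputs. HNRNPM, a splicing regulator that binds GU-rich sites, had 7.01 and 6.07 TPM in the Flag-IP libraries against 2.85 and 3.58 TPM in the inputs and a difference of -0.19 ± 0.10 (limma adjusted p = 0.181).

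Ratios of 2 related genes within a library do not depend on how the library was scaled, and 16 such pairs were compared. For 8 pairs the ratio was higher in the 2 Flag-IP libraries than in either input, for 4 it was lower, and for 4 the groups overlapped. How often pairs of other genes separate in this way was not counted. Some pairs share a gene, among them those with HNRNPH1 and those with FUBP1, so the pairs are not separate observations. Of single tested genes on the median-ratio scale, 37% had both Flag-IP libraries above both inputs and 37.1% had both below. An exact permutation test of 2 against 2 libraries cannot give a two-sided p below 0.333, and the pairs are described without a test. HNRNPH1 over HNRNPF was 0.455 and 0.371 in the Flag-IP libraries against 0.133 and 0.129 in the inputs. That is a mean log2 difference of 1.65, where libraries of one group lay at most 0.29 apart. SFPQ over NONO was 0.770 and 0.742 in the Flag-IP libraries against 0.412 and 0.447 in the inputs, a difference of 0.82 with libraries of a group at most 0.12 apart. FUBP1 over FUBP3 was 1.43 and 1.37 in the Flag-IP libraries against 0.853 and 0.697 in the inputs, so that the more abundant of these relatives was FUBP1 in the Flag-IP and FUBP3 in the input. TIA1 over TIAL1 was 1.02 and 0.872 in the Flag-IP libraries against 0.470 and 0.622 in the inputs. That difference of 0.80 compares with up to 0.40 between libraries of one group, and TIA1 was below 1 TPM in both inputs. FUBP1 over KHSRP, HNRNPC over RALY and HNRNPU over HNRNPUL1 were also higher in both Flag-IP libraries, by 0.90, 0.51 and 0.41 on the log2 scale. HNRNPH1 over HNRNPH2 was higher too, but rests on HNRNPH2 levels below 1 TPM in every library.

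**Figure D3:**
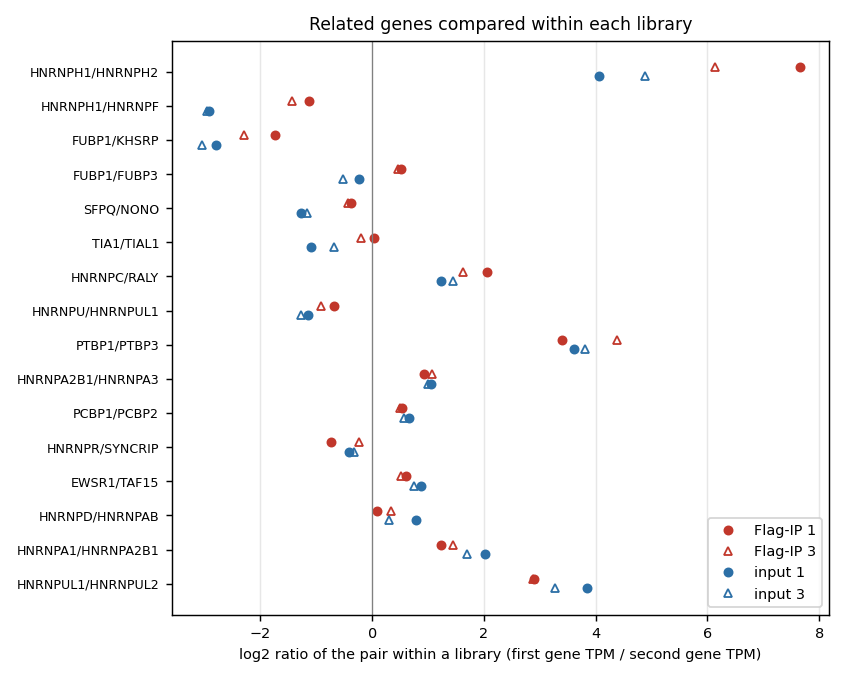
Log2 ratio of the TPM of 2 related genes within each library, with Flag-IP libraries in red above inputs in blue, circles for libraries numbered 1 and triangles for 3. HNRNPH1/HNRNPF and SFPQ/NONO are among the pairs that separate the groups, by 1.65 and 0.82, while HNRNPA2B1/HNRNPA3 and 3 other pairs overlap.

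The ratio was lower in both Flag-IP libraries for HNRNPA1 over HNRNPA2B1, at 2.35 and 2.73 in the Flag-IP libraries against 4.04 and 3.24 in the inputs. HNRNPUL1 over HNRNPUL2 was 7.40 and 7.39 in the Flag-IP libraries against 14.4 and 9.70 in the inputs. HNRNPUL2 had only 0.84 TPM in input 1, and its reads could have been divided with HNRNPUL2-BSCL2. EWSR1 over TAF15 was 1.52 and 1.42 in the Flag-IP libraries against 1.84 and 1.67 in the inputs. PCBP1 over PCBP2 was 1.45 and 1.40 in the Flag-IP libraries against 1.58 and 1.49 in the inputs, a gap of -0.11 on the log2 scale that was close to the 0.09 between libraries of one group. The pairs whose groups overlapped were HNRNPA2B1 over HNRNPA3, HNRNPR over SYNCRIP, HNRNPD over HNRNPAB and PTBP1 over PTBP3.

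Properties of the annotated genes that were not used to choose them were set beside the difference relative to the typical gene. Over the 36 genes it had a Spearman correlation of -0.54 with the input level, the same as over 5982 protein-coding genes tested; input values also enter the difference. Its correlation with the length of the coding sequence was 0.16 over the 36 and 0.59 over all, and with the longest transcript 0.02 and 0.47. The hnRNP-type coding sequences have lengths of 915 to 2568 bases, a narrow range within that of all genes. With the number of annotated nonsense-mediated decay transcripts the correlation was 0.38 over the 36 and 0.14 over all, and with the GC content of the coding sequence -0.31 and -0.15. The density of GGACT in the coding sequence had correlations of 0.01 and 0.07. These describe genes, which are not independent replicates, and 10 properties were looked at.

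**Figure D4:**
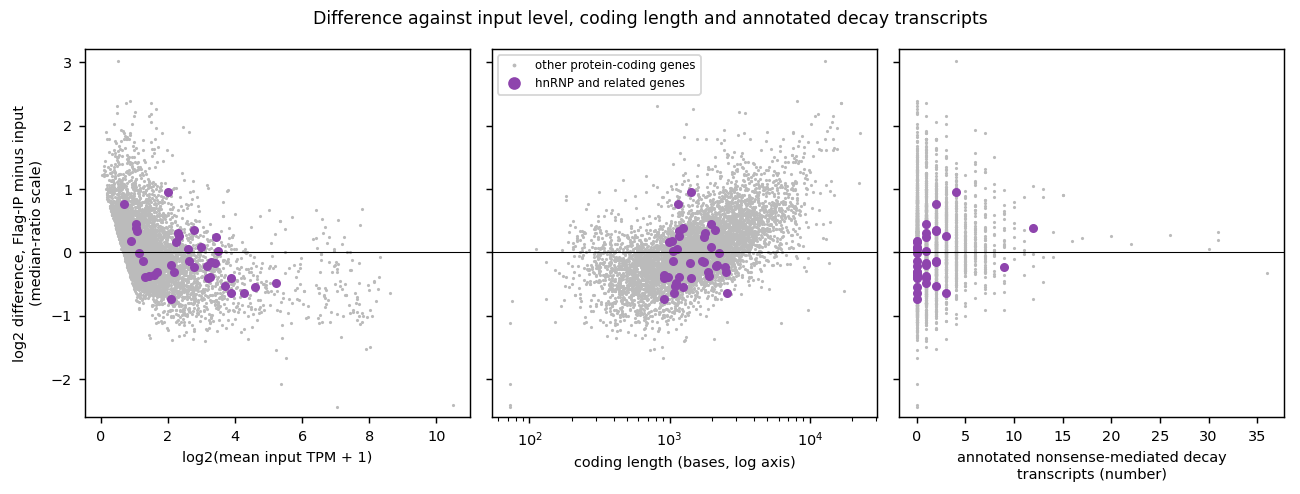
Log2 difference, Flag-IP minus input, relative to the typical gene (vertical axis) against input level, coding length and the number of annotated nonsense-mediated decay transcripts, for the 36 tested genes (purple) and other protein-coding genes (grey). The 36 follow the decline with input level (correlation -0.54) but span a narrow part of the coding length axis (915 to 2568 bases).

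All 6 genes that were higher relative to the typical gene have a transcript annotated for nonsense-mediated decay, with 12 in TARDBP, 4 in HNRNPH1, 2 each in TIA1, TIAL1 and SFPQ, and 1 in FUBP1. Of the 20 tested genes with such a transcript, 6 were higher and 5 lower, and of the 16 without one, none was higher and 7 were lower at adjusted p below 0.05 in limma. Over all protein-coding genes tested, 26.1% of those with such a transcript were higher and 15.4% lower, against 18.8% higher and 20.7% lower of those without. Among the higher genes of that set, 765 had such a transcript and 574 had none. HNRNPU, with 9 such transcripts, did not pass. Values per gene do not show which of these transcripts were present. The higher calls of TARDBP, TIAL1, SFPQ and FUBP1 were each lost under some alternatives, and TIA1 passed the filter only through its Flag-IP values.

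The 3 tested genes with a single coding exon, PCBP1, HNRNPF and HNRNPA0, were all lower relative to the typical gene, with a median of -0.54. Each of these calls was lost under some alternative, that of PCBP1 only under quantile scaling. The number of coding exons had a Spearman correlation with the difference of 0.23 over the 36 and 0.56 over all protein-coding genes tested. Over all tested genes with 1 coding exon (192), 44.3% were lower and 2.60% higher, against 17.2% and 23.0% of those with more. GGACT was present in the coding sequence of 23 of the 36 (63.9%), of which 5 were higher and 8 lower, and in 76.2% of all. Of the 13 genes without it, TIA1 was higher and 4 were lower. Over all protein-coding genes tested, 27.3% of those with GGACT were higher and 14.3% lower, against 6.74% higher and 30.2% lower of those without. Presence of GGACT was not adjusted for coding length, which had a Spearman correlation of 0.59 with the difference over these genes. For the density of GGACT that correlation was 0.07. The median density was 0.783 matches per kilobase in the 36 and 0.953 in all.

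Some of these genes have near-identical copies or overlapping neighbours among which reads could have been divided, and no source used here gives the strand setting of the counting. The HNRNPA1 pseudogene HNRNPA1P10 had 23.7 and 19.25 TPM in the Flag-IP libraries against 9.55 and 11.51 TPM in the inputs, so the HNRNPA1 values are uncertain by that much. HNRNPUL2 shares 2391 exon bases with the readthrough gene HNRNPUL2-BSCL2, which had 7.88 and 6.67 TPM in the Flag-IP libraries against 2.18 and 1.85 TPM in the inputs and thus exceeded HNRNPUL2 in all 4. PCBP2 overlaps MAP3K12 on the other strand over 1494 exon bases, and MAP3K12 had 1.95 and 1.9 TPM in the Flag-IP libraries against 0.31 and 0.35 TPM in the inputs. HNRNPA2B1 overlaps CBX3 in the same way over 368 bases. The HNRNPA1L2, RBMXL1 and RPL36A-HNRNPH2 symbols also carried values next to their relatives, and the GENCODE name MATR3 covers 2 gene identifiers.

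Other RNA-binding proteins from related families, were a list of 28 genes with 20 tested. On the deposited scale 19 were higher (95%), beside 86.6% of all tested genes, none was lower and PCBP3 did not pass. Relative to the typical gene 5 were higher (25%) and 2 lower (10%), beside 22.3% and 18.6% of all tested genes, with a median of 0.17. CIRBP, a cold-inducible RNA-binding protein, had 12.88 and 12.37 TPM in the Flag-IP libraries against 2.26 and 2.91 TPM in the inputs and a difference of 0.88 ± 0.12 (limma adjusted p = 0.0035). SAFB2, a scaffold attachment factor, had 5.09 and 4.93 TPM in the Flag-IP libraries against 0.77 and 1.17 TPM in the inputs and a difference of 0.77 ± 0.13 (limma adjusted p = 0.00651); its inputs averaged 0.97 TPM, so it passed the filter only through its Flag-IP values. PUM2, a Pumilio repressor of mRNAs, also passed at 0.41 ± 0.10 (limma adjusted p = 0.0218). Lowest were PCBP3, a relative of PCBP1 and PCBP2, at -0.52 ± 0.10 (limma adjusted p = 0.00889), and the signalling-linked splicing factor KHDRBS1 (Sam68) at -0.36 ± 0.10 (0.0385). G3BP1, a core protein of stress granules, came next at -0.18 ± 0.11 and did not pass (limma adjusted p = 0.221). The 2 lists were not compared by a test. PTBP2, known as the neuronal form of PTBP1, was below the filter, with 2.16 and 1.28 TPM in the Flag-IP libraries against 0.07 and 0.18 TPM in the inputs.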

How the data were processed

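RNA from 2 Flag-IP and 2 input libraries was measured by RNA immunoprecipitation and sequencing with a stranded mRNA kit. The authors deposited TPM per gene symbol, rounded to 2 decimals; per the submitters' processing notes STAR, RSEM and GRCh38 were used, while no source used here gives versions, parameters or the annotation. TPM keeps no depth, so no counting intervals are given, and 2 libraries per group limit precision.

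Genes averaging 1 TPM or more entered the test, on log2(TPM + 1), with limma 3.58.1 in R 4.3.3 (lmFit, eBayes with a mean-variance trend), two-sided, with Benjamini-Hochberg adjustment over all tested genes and a threshold of 0.05, with all 4 libraries and no covariate. The spread was shared between genes: on the deposited scale the prior degrees of freedom were infinite, and on the median-ratio scale they were 4.02 beside 2 residual ones, so the deposited standard errors follow the trend and not the single gene. Median-ratio scaling divides a library's values by the median of their ratios to the geometric means of the tested genes. Symbols were matched by name to GENCODE 29 on GRCh38, with 23870 of 26830 matched and all 38 of the genes described; gene extents, transcript types and coding sequences come from it. The code was tested on simulated data.

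All 38 genes are described, with values per library for the 8 highest and 8 lowest on the median-ratio scale and for both genes of each related pair; of the other RNA-binding proteins the 3 highest and 3 lowest were taken. PUM2 was added to these after its values were seen, and some items are not reported here. The members and lists were chosen with earlier results of these data known. Alternatives were no filter, a filter at 5 TPM, a pseudocount of 0.1, no trend, a replicate block, each library left out, quantile scaling, scaling without structural RNAs and removal of the trend with transcript length. Libraries of the same number did not deviate together (correlation -0.17 as deposited and -0.19 on the median-ratio scale), so the numbers were not used as pairs.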

Additional observations from a re-analysis of the deposited data

How the results depend on the processing

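With 2 libraries per group and unknown depth, single calls are weak. Relative to the typical gene, HNRNPH1, TIA1 and RALY kept their calls wherever they were tested and 15 others did not. TIA1 passed the filter only through its Flag-IP values. On the deposited scale 21 of 35 kept their calls under the alternatives that left the scaling as it was, and at most 7 once the other scalings are counted. On the deposited scale, of the 38 genes 23 were higher at a 5 TPM filter, which tests fewer genes, 7 under quantile scaling and 10 without structural RNAs, 21 to 34 with 1 library left out, and 4 and 5 were lower under those 2 scalings, against 35 and 0. Over all tested genes the higher ones (5616) numbered 1272, 1243 and 2205, and 3939 to 5628 with 1 library left out, and the lower ones (48) numbered 25, 1219 and 709, and 28 to 57. Relative to the typical gene, the 6 higher genes became 2 without a filter, 10 without structural RNAs and 2 to 3 with 1 library left out. The 12 lower ones became 4 under quantile scaling, 5 without structural RNAs and 6 with the replicate block. At 5 TPM 3 were lower among the 23 genes still tested. Over all tested genes the 1444 higher became 392 at 5 TPM, 2205 without structural RNAs and 961 to 1135 with 1 library left out, and the 1207 lower became 355, 709 and 587 to 837. HNRNPA1 reversed under quantile scaling, to 0.067 (limma adjusted p = 0.677), and the cause was not tested. Leaving structural RNAs out moved the median of all tested genes to 0.24, against -0.01 on the median-ratio scale, and the counts above are not corrected for that shift.

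The libraries share only a replicate number, and a replicate block left 28 of the 35 deposited calls and 4 of the 6 higher calls. A block with the numbers crossed, chosen after seeing the data, gave 35 higher genes on the deposited scale, and 5 higher and 10 lower on the median-ratio scale.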
